A study of Mus musculus with 4 samples.

Results

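The genes described are 10 polyadenylated, replication-independent histone genes, chosen by gene name from the 18169 rows of an expression table: the H2A variant genes H2afz, H2afv, H2afx, H2afy, H2afy2 and H2afj, the H3.3 genes H3f3a and H3f3b, and the linker histone genes H1f0 and H1fx. Each name had 1 row. RNA-seq was done on 4 primary cultures of mouse neural stem/progenitor cells (NSCs) of strain C57BL/6, 2 of them +/+ and 2 Chd5-/-, to ask what loss of the chromatin remodeler Chd5 does to transcription. Every culture was started from the periventricular brain tissue of a single newborn and grown in a proliferation medium with EGF and FGF2, so all 4 samples hold a mixture of stem and progenitor cells kept in the cycling state. Both alleles of Chd5 are mutant in the Chd5-/- cultures. The labels give the age of the donors in 2 ways: the culture protocol states postnatal day 1 for all, whereas the age entries run from day 1 to day 4, with the +/+ samples on days 1 and 2 and the mutants on days 3 and 4, so that age as entered and genotype cannot be told apart.

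Most histone genes are switched on only during S phase, lie in clusters and give mRNAs that end in a stem-loop without a poly(A) tail, so libraries selected for poly(A) capture little of them. The variant genes lie outside the clusters, give polyadenylated mRNAs and supply histones in all phases of the cycle and after cells stop dividing. H2A.Z and H3.3 mark promoters and enhancers with exchangeable nucleosomes, H2A.X is phosphorylated around DNA breaks, macroH2A carries a large extra domain and is known from silent chromatin, and the linker histone H1.0 accumulates in cells that leave the cycle or differentiate.

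The H3.3 pair and the H2A.Z pair are shown first, because the values of both partners can be separated only as far as their mRNAs differ. H3f3a and H3f3b encode the same protein of 136 residues, with 0 residues different between them, yet 95 of the 408 coding bases differ. H2afz and H2afv differ at 3 of 128 residues and at 80 of 384 coding bases. The first 150 coding bases of each gene, from the start codon, are printed below 5′ to 3′ from the transcripts of GENCODE release M21, with capitals at the bases that differ from the partner, 32 in the H3.3 pair and 34 in the H2A.Z pair.
H3f3a: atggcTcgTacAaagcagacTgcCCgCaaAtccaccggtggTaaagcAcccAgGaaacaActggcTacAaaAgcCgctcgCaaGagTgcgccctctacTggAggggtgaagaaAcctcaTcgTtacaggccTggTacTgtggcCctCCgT
H3f3b: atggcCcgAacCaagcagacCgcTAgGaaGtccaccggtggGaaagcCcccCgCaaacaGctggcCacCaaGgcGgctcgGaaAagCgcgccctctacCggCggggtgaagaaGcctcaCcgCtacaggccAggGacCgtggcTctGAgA
H2afz: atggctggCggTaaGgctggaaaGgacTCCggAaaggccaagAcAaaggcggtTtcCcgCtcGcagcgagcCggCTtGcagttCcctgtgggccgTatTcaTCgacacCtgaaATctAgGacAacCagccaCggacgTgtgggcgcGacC
H2afv: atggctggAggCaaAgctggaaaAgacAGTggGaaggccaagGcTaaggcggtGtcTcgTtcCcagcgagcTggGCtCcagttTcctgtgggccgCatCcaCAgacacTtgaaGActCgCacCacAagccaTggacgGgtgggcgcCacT
Of the differing bases, 29 of 32 in the H3.3 pair and 26 of 34 in the H2A.Z pair are at the last position of a codon, and the longest run without a difference is 11 bases in each pair.

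The promoters of the H2A.Z pair differ in base composition. The 250 bases upstream of the RefSeq start site were 71.2% G or C in H2afz (listed by RefSeq as H2az1) and 57.2% in H2afv (H2az2), beside a median of 52.4% over 32851 promoters. Capitals mark the CCAAT box, a common promoter element bound by NF-Y, searched as CCAAT on both strands, where ATTGG is the reverse match. The windows are chr3:137864237-137864486 on the + strand for H2afz and chr11:6444444-6444693 on the - strand for H2afv, both in GRCm38.
H2afz promoter: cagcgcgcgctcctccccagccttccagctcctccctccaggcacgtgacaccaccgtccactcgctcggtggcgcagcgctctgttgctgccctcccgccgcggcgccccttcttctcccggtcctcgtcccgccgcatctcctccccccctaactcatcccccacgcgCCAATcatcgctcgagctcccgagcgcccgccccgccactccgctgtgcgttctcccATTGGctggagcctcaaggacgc
H2afv promoter: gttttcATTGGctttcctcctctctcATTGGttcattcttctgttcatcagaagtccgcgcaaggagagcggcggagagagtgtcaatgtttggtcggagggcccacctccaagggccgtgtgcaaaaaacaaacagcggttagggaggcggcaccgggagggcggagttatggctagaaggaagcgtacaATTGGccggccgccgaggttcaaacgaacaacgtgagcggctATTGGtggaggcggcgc
A CCAAT box was found in 5 of the 9 genes that had a promoter in the RefSeq table, H2afz, H2afv, H2afj, H3f3a and H3f3b, and in 33.8% of all promoters of this length. Of the other elements searched on both strands, the GC box GGGCGG was in 6 of 9 (32.7% of all promoters), and the TATA box TATAAA in H3f3b alone (12.4%). The E-box CACGTG was in H2afz alone (6.02%) and the H1 box AAACACA in H3f3a alone (6.25%). H2afx had no promoter in the RefSeq table. The windows of H3f3a, H3f3b, H2afy and H2afy2 lay within the spans that GENCODE gives these genes, so the elements found there depend on the start site used.

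The levels of the 10 genes were far apart in TPM, a unit of relative transcript abundance that is scaled by transcript length and so allows genes to be compared. H3f3a was first, with a mean of 1334 TPM over the 4 samples. H2afz (618 TPM) and H3f3b (614 TPM) followed and could not be ranked against each other, since each was ahead in 2 of 4 samples. H1f0 (106 TPM) was above H2afv (71.5 TPM) in 4 of 4 samples, although the ranges of the genes overlapped. H2afv and H2afy (58.0 TPM) again traded places, as did H2afx (22.2 TPM) and H2afy2 (17.2 TPM), and H2afj (3.71 TPM) and H1fx (0.588 TPM) came last without overlap with their neighbours. H3f3a alone held between 44.5% and 50.1% of the summed TPM of the 10 genes.

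**Figure D1:**
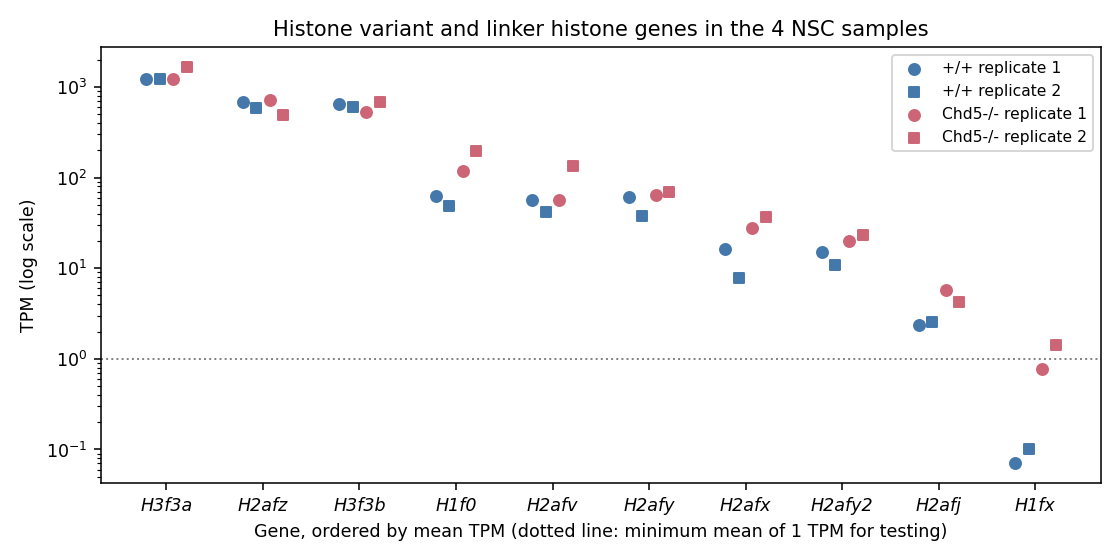
TPM of the 10 genes (log axis) in the 2 +/+ samples (blue) and the 2 Chd5-/- samples (red), with circles for replicate 1 and squares for replicate 2. The genes are ordered by mean TPM, from H3f3a at 1334 to H1fx at 0.588, and the red points lie above the blue ones for H1f0, H2afy, H2afx, H2afy2, H2afj and H1fx.

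Between the genotypes, on the scale of log2(TPM + 1), the 2 furthest apart of the 9 genes tested were H1f0 and H2afx. Both were higher in Chd5-/- cells. The most abundant genes, H3f3a, H3f3b and H2afz, stayed close to their +/+ levels in the deposited TPM, but not under every other scaling given below. Of the 9 genes with a mean of at least 1 TPM, which were tested with limma on log2(TPM + 1), 2 were higher in Chd5-/- cells at an unadjusted p under 0.05 (H1f0 and H2afx) and 0 were lower, beside 21.9% and 2.27% of all 12576 rows tested. With Benjamini-Hochberg adjustment over all rows, limma called 0 of the 9, beside 0.0557% of all rows. The samples of the genotypes did not overlap, with Chd5-/- higher, in 5 of the 9 and in 46.3% of all rows, and with Chd5-/- lower in 0 of the 9 and 13% of all rows. The share called higher was thus close to that of the whole table, 2 of 9 being 22.2%. H1fx was the only one of the 10 below 1 TPM on average and was left out of these counts.

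The scale itself leaned to one side. The median log2 fold change (Chd5-/- minus +/+) over all rows was 0.34 in the deposited TPM, and the median of the 9 genes was 0.71. Under median-of-ratios scaling, which sets the middle of the samples equal, these became -0.03 and 0.32, with 1391 rows higher (11.1%) and 1507 lower (12%) in place of 2748 and 285, and 2 and 0 of the 9 genes. Quantile normalization gave medians of -0.05 and 0.30, with 1103 rows higher (8.77%) and 1024 lower (8.14%), and again 2 and 0 of the 9 genes. Leaving the 20 most abundant rows out of the scaling gave 0.13 and 0.49, with 1871 rows higher (14.9%) and 819 lower (6.51%), and 2 and 0 of the 9. Once the trends of each sample with transcript GC content and length were removed, the medians were -0.02 for all rows and -0.23 for the 9 genes, with 568 rows higher (4.85%) and 774 lower (6.62%), and 1 of the 9 called higher (H1f0) and 1 lower (H2afz).

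**Figure D2:**
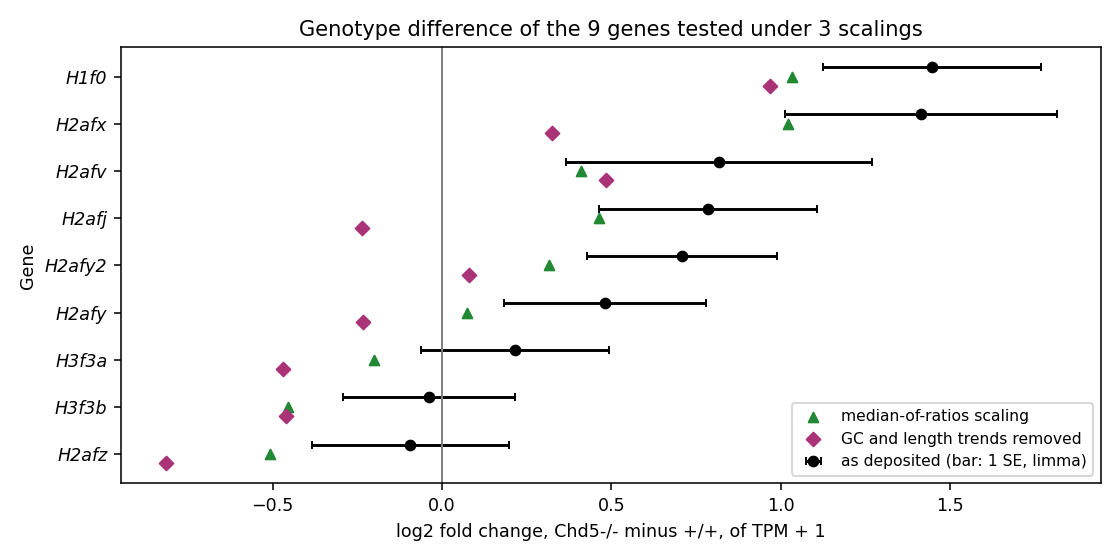
Log2 fold change (Chd5-/- minus +/+, of TPM + 1) of the 9 genes tested, with black circles for the deposited TPM (bars, 1 SE from limma), green triangles for median-of-ratios scaling and purple diamonds after removal of GC and length trends. H1f0 stays at 0.97 or above under all 3, whereas H3f3a turns negative under both alternatives and H2afy and H2afj turn negative with the trends removed.

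H2A.Z is supplied mostly by H2afz (chr3:137864487-137866922, + strand, 5 exons). It measured 686 and 580 TPM in +/+ cells against 719 and 487 TPM in Chd5-/- cells, so the genotypes overlapped fully. The log2 fold change was -0.09 ± 0.29 (SE, n = 2 and 2 samples), with an adjusted p of 0.862 by limma. Median-of-ratios scaling gave -0.51, and removal of the GC and length trends -0.82 at an unadjusted limma p of 0.0176 (adjusted 0.410, with a range of 0.304 to 0.983 over the alternatives), whereas it turned positive when Chd5-/- replicate 2 (0.19) or +/+ replicate 1 (0.03) was left out.

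H2afv (chr11:6427229-6444443, - strand), the second H2A.Z gene, measured 56.2 and 41.6 TPM in +/+ cells and 55.9 and 132 TPM in Chd5-/- cells. Chd5-/- replicate 1 lay within the +/+ range and replicate 2 stood far above all others. The log2 fold change of 0.82 ± 0.45 (adjusted p = 0.324, limma) therefore rested on 1 sample: it was 0.20 without Chd5-/- replicate 2 and 1.43 without Chd5-/- replicate 1. H2afv made up 7.57% and 6.70% of the summed H2A.Z mRNA in +/+ cells, and 7.21% and 21.4% in Chd5-/- cells. On the log2 scale the ratio of H2afv to H2afz was 0.91 higher in Chd5-/- cells (exact permutation test, two-sided, p = 0.667), and 0.02 higher without Chd5-/- replicate 2. The sum of both genes was 742 and 622 TPM in +/+ cells and 775 and 619 TPM in Chd5-/- cells, with no separation.

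H2afx (chr9:44334694-44336077, + strand, 1 exon) encodes H2A.X, whose tail is phosphorylated at DNA breaks. Its TPM was 16.4 and 7.83 in +/+ cells and 27.8 and 36.9 in Chd5-/- cells. Both Chd5-/- samples were above both +/+ samples. The log2 fold change was 1.41 ± 0.40, with an unadjusted limma p of 0.0155 and an adjusted p of 0.143. It stood at 1.02 under median-of-ratios scaling (unadjusted p = 0.0367), fell to 0.92 without +/+ replicate 2 (unadjusted p = 0.0850), and was 0.32 with GC and length trends removed (unadjusted p = 0.358). The transcript of H2afx is 62.3% G or C, a content above that of 99.1% of the rows tested. Within a sample, the log2 ratio of H2afx to H2afz was -5.30 and -6.04 in +/+ cells and -4.64 and -3.69 in Chd5-/- cells. The difference was 1.51, in which a common scale factor nearly cancels, though not fully, since 1 TPM is added. The exact permutation test gave p = 0.333, the smallest that 2 against 2 samples allow. With the trends removed the difference was 1.14, where H2afx itself was at 0.32 and H2afz at -0.82, so most of it lay in H2afz.

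The macroH2A genes H2afy (chr13:56073619-56136361, - strand) and H2afy2 (chr10:61738665-61784147, - strand) encode macroH2A1 and macroH2A2, identical at 255 of 363 aligned residues. H2afy measured 60.6 and 37.4 TPM in +/+ cells and 63.9 and 70.1 TPM in Chd5-/- cells, so that +/+ replicate 1 came close to Chd5-/- replicate 1. Its log2 fold change was 0.48 ± 0.30 (adjusted p = 0.368, limma), but 0.14 without +/+ replicate 2, 0.07 under median-of-ratios scaling and, after removal of the trends, -0.23.

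H2afy2 measured 15.1 and 10.8 TPM against 20.0 and 23.1 TPM, with no overlap and a log2 fold change of 0.71 ± 0.28 (adjusted p = 0.209, limma), which median-of-ratios scaling lowered to 0.32 and removal of the trends to 0.08. H2afy2 supplied 19.9% and 22.4% of macroH2A mRNA in +/+ cells and 23.8% and 24.8% in Chd5-/- cells. The ratio of H2afy2 to H2afy was 0.23 higher on the log2 scale in Chd5-/- cells, without overlap (exact permutation p = 0.333), and the difference was 0.11 without +/+ replicate 1 and 0.34 without +/+ replicate 2. The exons of H2afy2 share 233 bases with those of Aifm2 on the opposite strand, whose own row read 2.30 and 2.90 against 6.31 and 3.23 TPM, and whether reads were counted by strand is not given in the sources used here.

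H2afj (chr6:136808244-136810074, + strand) encodes H2A.J, a variant close to canonical H2A and identical to H2A.X at 118 of 129 aligned residues. Its TPM was 2.35 and 2.53 in +/+ cells and 5.76 and 4.20 in Chd5-/- cells. The +/+ samples were nearly equal and both Chd5-/- samples lay above them. The log2 fold change of TPM + 1, a scale that understates the change of a low gene, was 0.79 ± 0.32 (adjusted p = 0.218, limma). It was 0.46 under median-of-ratios scaling and fell below 0, to -0.23, once GC and length trends were removed, the transcript being 58.7% G or C on average.

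The H3.3 genes H3f3a (chr1:180800832-180813943, - strand) and H3f3b (chr11:116021912-116027962, - strand) supply the same histone in all phases of the cycle. H3f3a measured 1234 and 1222 TPM in +/+ cells and 1232 and 1649 TPM in Chd5-/- cells. Chd5-/- replicate 1 was thus level with the +/+ samples and replicate 2 was above them, and the log2 fold change of 0.22 ± 0.28 (adjusted p = 0.657, limma) turned to -0.20 under median-of-ratios scaling, -0.10 under quantile normalization, -0.02 after rescaling and -0.47 with the trends removed.

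H3f3b measured 640 and 599 TPM against 528 and 690 TPM, with the +/+ samples between the Chd5-/- samples. Its log2 fold change was -0.04 ± 0.25 (adjusted p = 0.941, limma). It was -0.45 under median-of-ratios scaling, -0.33 under quantile normalization, -0.28 after rescaling and -0.46 with the trends removed. H3f3a contributed 65.8% and 67.1% of H3.3 mRNA in +/+ cells and 70.0% and 70.5% in Chd5-/- cells, a pair of narrow ranges that did not overlap. The log2 ratio of H3f3a to H3f3b was 0.95 and 1.03 in +/+ cells and 1.22 and 1.26 in Chd5-/- cells, a difference of 0.25 (exact permutation p = 0.333) that was -0.01 once GC and length trends were removed. Coding sequences with at least 95% identity to H3f3a over at least 80% of its length lie in 14 other genes, all pseudogenes, so reads could be shared among them. The 1 of these with a row of its own, Gm12657, read 30.0 and 31.7 TPM in +/+ cells and 26.5 and 36.7 TPM in Chd5-/- cells, small beside H3f3a.

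**Figure D3:**
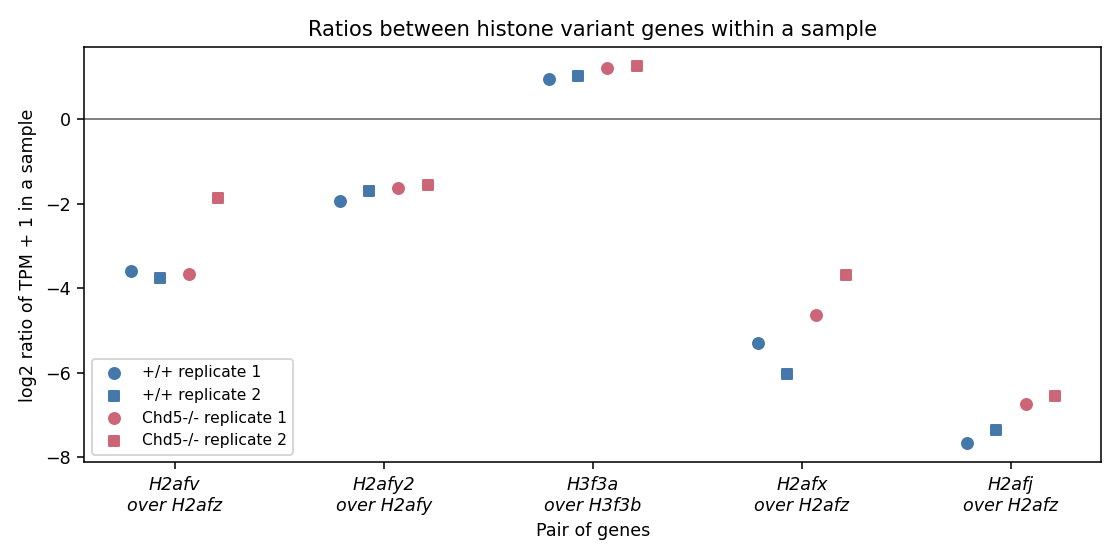
Log2 ratio of TPM + 1 between 2 histone variant genes within each sample, by pair, with +/+ samples in blue and Chd5-/- samples in red. The H3f3a to H3f3b ratio is 0.95 and 1.03 in +/+ cells and 1.22 and 1.26 in Chd5-/- cells, and the H2afv to H2afz ratio stands apart in Chd5-/- replicate 2 alone (-1.87).

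H1f0 (chr15:79028450-79030504, + strand, 1 exon), which encodes the linker histone H1.0, had the smallest p of the 9 genes. Its TPM was 62.6 and 48.7 in +/+ cells and 118 and 196 in Chd5-/- cells, so that the lower Chd5-/- sample was well above the higher +/+ sample. The mean went from 55.6 ± 9.89 to 157 ± 55.1 TPM (SD, n = 2 each), 2.82 times as much. The log2 fold change was 1.45 ± 0.32, with an unadjusted limma p of 0.00583 and an adjusted p of 0.121, and 93.3% of the rows tested had a smaller one. The adjusted p ranged from 0.0268, without Chd5-/- replicate 1, to 0.759, without +/+ replicate 2, where the unadjusted p was 0.0525. The difference was 1.03 under median-of-ratios scaling (unadjusted p = 0.0209), and it was 0.97 with GC and length trends removed (unadjusted p = 0.0260), where H1f0, with a transcript of 52.1% G or C, was the 1 gene of the 9 still called higher. H1f0 is also an entry in the study's own supplementary list of changed genes, which came from these same samples and is no independent evidence of its direction.

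H1fx (chr6:87980421-87981637, - strand, 1 exon), the gene of the linker histone H1.10, was barely present at 0.07 and 0.10 TPM in +/+ cells and 0.77 and 1.41 TPM in Chd5-/- cells. The genotypes did not overlap, and the log2 difference of TPM + 1 was 0.93. With no minimum level set, its unadjusted limma p was 0.00674 and its adjusted p 0.194 over 18169 rows, beside 17% of these rows called higher at an unadjusted p under 0.05. The ratio of H1fx to H1f0 was 0.52 lower on the log2 scale in Chd5-/- cells with 1 TPM added to each value and 1.18 higher with 0.1 TPM added, the level of H1fx itself being below 1 TPM in 3 of 4 samples. In the TPM as deposited, H1fx made up 0.112% and 0.205% of the sum of both genes in +/+ cells and 0.648% and 0.714% in Chd5-/- cells, without overlap. Its transcript is 71.3% G or C, and its exons share 213 bases with those of Gm5577 on the opposite strand, a row at 1.98 and 0.92 against 0.95 and 2.80 TPM.

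Set against the other linker histone genes in these poly(A)-selected libraries, H1f0 had the highest TPM in +/+ cells and in Chd5-/- replicate 1. In Chd5-/- replicate 2 it was second, at 196 TPM, to Hist1h1c at 217 TPM. Replication-dependent linker mRNAs mostly lack a poly(A) tail and are captured little. The shares below are therefore of captured RNA and do not rank the genes in the cell. The 8 linker histone genes in the table summed to 82.8 and 61.5 TPM in +/+ cells and to 165 and 427 TPM in Chd5-/- cells. Hist1h1c, the replication-dependent H1.2 gene, measured 18.8 and 11.8 TPM against 44.1 and 217 TPM. H1f0 accordingly held 75.6% and 79.2% of the captured linker histone mRNA in +/+ cells and 71.6% and 45.9% in Chd5-/- cells. Hist1h1c held 22.7% and 19.1%, then 26.8% and 50.8%. The log2 fold change of Hist1h1c was 2.64 ± 0.76 (unadjusted p = 0.0166, adjusted p = 0.144, limma), and Chd5-/- replicate 2 was far above replicate 1.

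GC content moved with the fold changes of the whole table. Across 11700 rows that had a value for both, all from the same 4 libraries, the rank correlation of GC content with log2 fold change was 0.59, and across the 9 genes it was 0.17. With the trends removed, H1f0 (0.97) and H2afv (0.48) were still positive and H2afz (-0.82) was the lowest of the 9. The part of GC content in the differences of H2afx and H2afj was not tested beyond the removal of the trend.

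**Figure D4:**
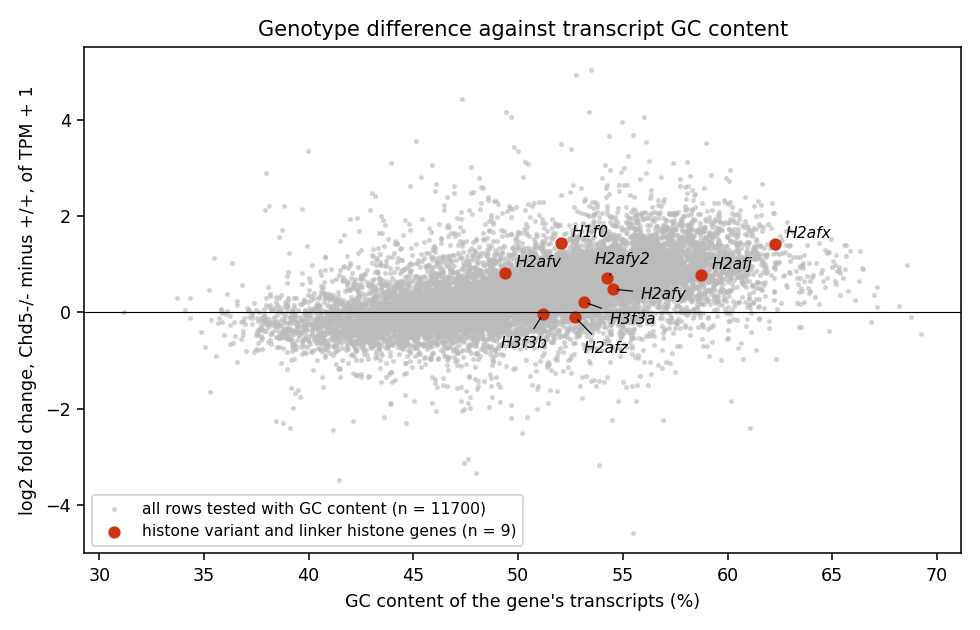
Log2 fold change (Chd5-/- minus +/+, of TPM + 1) against transcript GC content for 11700 rows (grey) and the 9 histone variant and linker histone genes tested (red), with 3 rows beyond the y axis left off. H2afx sits at 62.3% GC with a fold change of 1.41, while H1f0 has nearly the same fold change, 1.45, at 52.1%.

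The machinery that loads these variants was read from lists of known components. For this and every later list, 21.9% of all rows were higher and 2.27% lower in the deposited TPM. The shares of all rows were 11.1% and 12% under median-of-ratios scaling, and 4.85% and 6.62% with the GC and length trends removed. Of 8 genes for H3.3 deposition (the HIRA complex, which loads H3.3 at active genes, and DAXX-ATRX, which loads it at repeats), 3 were higher in Chd5-/- cells at an unadjusted limma p under 0.05 and 0 were lower, beside 21.9% and 2.27% of all rows, with a median log2 fold change of 0.44 beside 0.34 for all rows. Cabin1, a subunit of the HIRA complex, went from 4.41 and 5.08 TPM to 11.2 and 11.7 TPM (log2 fold change 1.12, unadjusted p = 0.00862). Daxx, the H3.3 chaperone, went from 4.78 and 4.00 TPM to 9.06 and 10.1 TPM (0.98, unadjusted p = 0.0173). Under median-of-ratios scaling 1 of the 8 was higher and 2 were lower, with a median of 0.04. Removal of the GC and length trends gave a median of 0.09, and 0 of the 8 were then called in either direction.

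Of 20 genes for H2A.Z deposition and removal (SRCAP, TIP60-p400, ANP32E and INO80), 19 were tested, 7 were higher (21.9% of all rows) and 0 lower (2.27%), with a median of 0.45. Dmap1, a subunit shared by SRCAP and TIP60, measured 6.59 and 5.02 TPM against 14.9 and 21.7 TPM (1.49, unadjusted p = 0.00476), and Znhit1, a SRCAP subunit, 7.47 and 8.20 TPM against 18.1 and 17.3 TPM (1.08, unadjusted p = 0.00709). Neither genotype overlapped the other in these genes. Under median-of-ratios scaling 4 of the 19 were higher and 2 lower, with a median of 0.05. Removal of the trends left a median of 0.14, with 1 of the 19 higher and 0 lower. Neither Dmap1, then at 0.62, nor Znhit1, at 0.07, was the gene still called.

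Of 12 genes in H2A.X signalling, 11 were tested, 3 were higher and 0 lower, beside 21.9% and 2.27% of all rows, with a median of 0.34, close to that of all rows. Median-of-ratios scaling gave 1 of the 11 higher and 1 lower, as did removal of the trends. Eya1, a phosphatase that acts on H2A.X, measured 3.86 and 3.43 TPM against 9.08 and 35.0 TPM (2.04, unadjusted p = 0.0214, and 1.85 with the trends removed, unadjusted p = 0.0383), and Rnf8, a ubiquitin ligase recruited to breaks, 13.8 and 9.92 TPM against 22.0 and 21.9 TPM (0.85, unadjusted p = 0.0247). Among 16 general histone chaperones 1 was higher, Supt6 (0.76, unadjusted p = 0.0419), and 0 were lower, with a median of 0.04 (0 higher and 1 lower under median-of-ratios scaling and, likewise, with the trends removed), and Ssrp1, a FACT subunit, was next by p (0.56, unadjusted p = 0.0800). No gene of these lists had an adjusted p under 0.05 by limma.

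The other chromatin proteins on the lists behaved unequally. Of 9 high mobility group genes 0 were called in either direction, beside 21.9% of all rows higher and 2.27% lower, with a median of -0.09. The pair with the smallest limma p were lower. Hmga1, an architectural protein of immature cells, measured 84.6 and 166 TPM against 78.7 and 46.4 TPM (-0.96, unadjusted p = 0.0733), and Hmga2 was at -1.27 (unadjusted p = 0.0973). Under median-of-ratios scaling 0 of the 9 were higher and 2 lower, with a median of -0.51 and Hmga1 at -1.37 (unadjusted p = 0.0369). With the trends removed 0 were higher and 1 was lower, Hmga1 at -2.09 (unadjusted p = 0.0119). Of 9 further variant histone genes 2 had a row: Cenpa, the centromeric H3, measured 25.6 and 11.0 TPM against 26.8 and 66.6 TPM (1.28, unadjusted p = 0.0746), and Hist3h2ba 0.69 and 0.00 TPM against 1.50 and 5.49 TPM (1.63, unadjusted p = 0.0381).

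Replication-dependent histone genes, read in poly(A) libraries only through the few polyadenylated copies of their mRNAs, had 28 rows, of which 14 were tested. Of these, 5 were higher (21.9% of all rows) and 0 lower (2.27%), with a median of 0.95, and 2 of the 5 were identical rows of 1 gene, Hist1h2bq. The rows were taken by cluster name, so Hist3h2ba, given above among the further variant histone genes, is counted in both lists. It is also 1 of the 5. Under median-of-ratios scaling 4 were higher and 0 lower, with a median of 0.66, and with the trends removed 1 was higher and 0 lower, with a median of 0.56. Hist1h4i had the smallest p, with 0.50 and 0.23 TPM against 3.12 and 7.18 TPM (2.10, unadjusted p = 0.00522). The summed TPM of all 28 rows was 165 and 167 in +/+ cells, 206 in Chd5-/- replicate 1 and 601 in replicate 2, so that replicate 2 stood apart here as it did for H2afv.

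The labelled genotype and cell type were checked in the same table. Chd5 read 0.39 and 0.37 TPM in +/+ cells and 0.06 and 0.04 TPM in Chd5-/- cells, lower in the Chd5-/- samples but under 1 TPM in all. The 12 NSC markers had sums of 8205 to 9892 TPM in +/+ cells and 3988 to 6970 TPM in Chd5-/- cells. Fabp7 was the largest part, with 5892 and 4316 TPM against 1939 and 3822 TPM. Without overlap, 4 markers were lower in Chd5-/- cells and 1 was higher, beside 13% and 46.3% of all rows. The higher one, Egfr, measured 139 and 129 TPM against 147 and 324 TPM. All 12 markers were present at a mean of 1 TPM or more. Of these, 0 were higher and 1 was lower at an unadjusted limma p under 0.05: Slc1a3, the glial glutamate transporter, measured 1871 and 1620 TPM against 442 and 1006 TPM (-1.38, unadjusted p = 0.0244). Fabp7, the radial glial lipid carrier, was next by p (-0.89, unadjusted p = 0.0993). Of all rows 2.27% were lower on this scale. Under median-of-ratios scaling 0 of the 12 were higher and 3 lower, with Fabp7 at -1.31 (unadjusted p = 0.0273), and with the trends removed 0 were higher and 2 lower. In bulk samples, fewer cells of a type and less RNA per cell cannot be told apart.

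Markers of dividing cells and of other cell types varied beside these genes, and their part in the differences of H1f0, H2afx and H2afv was not tested. Of 12 cell cycle markers 1 was higher, Birc5 (0.95, unadjusted p = 0.0440), and 0 were lower, with Cdk1 next by p (0.64, unadjusted p = 0.0847). Their median log2 fold change was 0.60, beside 0.34 for all rows. Median-of-ratios scaling gave 0 higher and 1 lower, with a median of 0.19. Removal of the trends gave 0 and 0, with a median of 0.19. The sums of the cell cycle markers were 670 to 987 TPM in +/+ cells and 897 to 952 TPM in Chd5-/- cells. Neuron markers, with 4 of 12 tested, included 1 higher gene, the synaptic vesicle protein Syt1 (1.60, unadjusted p = 0.0305), with sums of 524 to 535 TPM against 430 to 803 TPM, and Gad1 was next by p (0.63, unadjusted p = 0.636). Map2 made up most of the neuron sums, at 503 and 516 TPM in +/+ cells and 366 and 785 TPM in Chd5-/- cells. Of the 11 neuron markers with a row, 4 were under 1 TPM in all samples. Of 7 astrocyte markers 0 were called, with sums of 864 to 1175 TPM against 536 to 1413 TPM. Of 7 oligodendrocyte lineage markers tested 0 were called (1 lower with the trends removed), with sums of 571 to 631 TPM against 504 to 928 TPM.

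The 2 microglia markers with a row were under 1 TPM in every sample. Mesenchymal and vascular markers summed to at most 0.43 TPM in all samples but Chd5-/- replicate 1, which read 22.4 TPM, with 3 of the 9 tested and 0 called. Their most changed gene by p, Acta2, measured 0.00 and 0.30 TPM against 9.55 and 0.20 TPM, and Dcn was at 0.00 TPM in both +/+ samples and 4.17 and 0.06 TPM in the Chd5-/- samples. The 2 Chd5-/- samples were also less alike than the +/+ samples, with a rank correlation across 12576 rows of 0.904 against 0.974, and the correlations between genotypes lay from 0.904 to 0.925.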

How the data were processed

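RNA of 4 NSC cultures, each from an individual newborn, was sequenced from poly(A)-selected stranded libraries. The authors deposited 1 table of TPM values, used here as deposited. The submitters' processing notes name Bowtie2 2.2.3, RSEM 1.2.20 and mm10; the annotation, the filters and whether counting used strand are not given in the sources used here. TPM carries no read depth, so no counting error could be given and precision rests on 2 samples a genotype. More than 1 row was held by 196 gene names, none of them among the 10 genes.

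A minimum mean of 1 TPM left 12576 of 18169 rows, which were tested on log2(TPM + 1) with limma 3.58.1 in R 4.3.3 (lmFit, eBayes with a trend, two-sided, no other terms), with Benjamini-Hochberg adjustment over all rows tested and a threshold of 0.05. The samples are separate cultures, and p-values measure only the spread between them. Ratios between genes were compared with scipy 1.17.1 by an exact permutation test, whose smallest p is 0.333. The fits were also run on simulated rows with independent noise of the same spread in both genotypes. That simulation held no GC trend and no effect shared within a sample, so it does not test the fits under these. GC content and transcript length, means over the transcripts of a gene in GENCODE release M21 of GRCm38, were found for 93.0% of the rows tested, and each sample's deviation from the mean of its row was fitted on both by loess (span 0.5) and the fit subtracted. Coding sequences were taken from the same release and promoters from RefSeq for GRCm38; near-identical copies were searched with BLAST 2.17.0. Exons of H2afx, H2afy, H2afj, H3f3a and H1f0 also overlap opposite-strand genes that had no row.

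The genes named were the 10 genes themselves, Chd5, and from each other list the 2 tested genes with the smallest unadjusted p and any with an adjusted p under 0.05. Hist1h2bq, Gm12657, Egfr and Map2 were named after their values were seen. The 10 genes and all lists were chosen with earlier results of these data known, and the sums within classes and the sequence comparisons were added after the values were seen. The alternatives were removal of GC and length trends, quantile normalization, median-of-ratios scaling, scaling that left out the 20 most abundant rows, pseudocounts of 0.1 and 5, a minimum of 10 TPM or none, eBayes without a trend, the replicate number as a block, and each sample left out. Same-numbered samples deviated from their group means with a correlation of -0.152, so the numbers were not taken to pair the samples.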

Additional observations from a re-analysis of the deposited data

How the results depend on the processing

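H1f0 and H2afv kept a positive log2 fold change under every alternative run, as did H2afx and H2afy2. Fold changes that turned over were those of H3f3a (-0.20 under median-of-ratios scaling, -0.10 under quantile normalization, -0.022 after rescaling and -0.47 after removal of the GC and length trends), H2afy (-0.23 with the trends removed), H2afj (-0.23 likewise), H2afz (0.03 without +/+ replicate 1, 0.19 without Chd5-/- replicate 2, against -0.37 without Chd5-/- replicate 1) and H3f3b (0.01 without +/+ replicate 1, 0.15 without Chd5-/- replicate 1). The median of the 9 genes tested turned from 0.71 to -0.23 with the trends removed, and ranged from 0.42 to 0.82 with each sample left out. The log2 ratio of H3f3a to H3f3b turned to -0.0087 with the trends removed, and that of H1fx to H1f0 to 1.18 with a pseudocount of 0.1. The trends were not removed for H1fx to H1f0, since H1fx was below the minimum.

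The count of genes higher at an unadjusted p under 0.05, 2 in the deposited TPM, was 1 with the trends removed and ranged from 0 to 3 with each sample left out, being 0 without +/+ replicate 2. The count of lower genes went from 0 to 1 with the trends removed (H2afz) and was 0 to 0 with each sample left out. The count with an adjusted p under 0.05 by limma ranged from 0 to 2 with each sample left out: H2afv (0.0372) and H1f0 (0.0268) passed without Chd5-/- replicate 1, and H1f0 (0.0492) without Chd5-/- replicate 2, fits in which 1 sample stands for its genotype and is assumed to vary like the other.

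Same-numbered samples share only a number. With the replicate number as a block, 2 genes remained higher, 0 lower and 0 past an adjusted p of 0.05. With the replicate block and the trends removed, 1 was higher, the median was -0.23, and H2afy (-0.23), H2afj (-0.23) and H3f3a (-0.47) were negative. A block of crossed numbers, added after the data were seen, gave 4 of the 9 higher, beside 22.3% of all rows.

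Over all rows, the counts called higher, lower and past the adjusted threshold were 2748, 285 and 7 in the deposited TPM. They were 1391, 1507 and 6 under median-of-ratios scaling, 1103, 1024 and 1 under quantile normalization, 568, 774 and 3 with the trends removed, 1871, 819 and 6 after rescaling, 2111, 178 and 0 with the replicate block, and 382, 489 and 0 with both. With each sample left out, 723 to 3493 rows were higher, 81 to 943 lower and 0 to 1247 past the adjusted threshold, 1247 without Chd5-/- replicate 1 and 1086 without replicate 2. The adjusted count was 4 with a pseudocount of 0.1 and 0 with no minimum. The causes were not tested.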
